A study of Mus musculus with 6 samples.

Results

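The unfolded protein response of the endoplasmic reticulum (ER) was read in liver through 10 genes, Hspa5, Hsp90b1, Xbp1, Atf6, Herpud1, Dnajb9, Sdf2l1, Pdia4, Creld2 and Hyou1. They were chosen by gene symbol, with earlier results of these data known, and each matched 1 of the 54532 genes in the deposited count table. The libraries came from 6 male C57BL/6J mice, 1 library per mouse, that had been fed a high-fat diet for 6 weeks from 8 weeks of age, the study's model of insulin resistance (IR). All had fasted for 16 h before an injection. In 3 of them it was insulin at 0.75 units per kg body weight (IR insulin), in the other 3 it was bovine serum albumin, the vehicle (IR vehicle), and the liver was collected 6 h later. Mice on normal chow were not analysed here, so the values compare insulin with vehicle within insulin-resistant mice and do not measure an effect of the diet.

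The ER folds and exports the secreted proteins of the hepatocyte, a cell that makes most of the proteins of blood plasma. When unfolded proteins build up in the ER, the membrane sensors IRE1 (encoded by Ern1), PERK (encoded by Eif2ak3) and ATF6 are released from the chaperone BiP. IRE1 splices the mRNA of Xbp1 into a form that encodes an active transcription factor, ATF6 is cut in the Golgi apparatus to free a transcription factor, and PERK slows translation and favours that of ATF4. The freed factors raise the transcription of chaperones, folding enzymes and the machinery of ER-associated degradation. The response is also known in liver as one that varies with feeding and with secretory load.

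The best known target sequence of ATF6 is the ER stress response element (ERSE), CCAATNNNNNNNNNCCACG, whose CCAAT end is bound by NF-Y. ERSE-II, ATTGGNCCACG, is a shorter form of it. Both were sought on both strands of the RefSeq promoters (build GRCm38.p6, 250 bases before to 50 bases after each start), and of 32851 promoters 39 (0.119%) held an ERSE and 12 (0.0365%) an ERSE-II. Promoters were found for 8 of the 10 genes, all except Atf6 and Hyou1. Of these 8, Hspa5, Hsp90b1 and Creld2 held an ERSE and Herpud1 an ERSE-II. The 250 bases upstream of the start of these 4 genes are shown because they carry an element typical of the chaperone genes of the response. They are written 5′ to 3′ on the strand of the gene, with each element in capitals, and the start is that of RefSeq. The GENCODE genes of Hspa5 and Hsp90b1 begin further upstream, inside the stretch shown. The stretches are chr2:34771840-34772089 (plus strand), chr10:86705445-86705694 (minus strand), chr15:88819396-88819645 (plus strand) and chr8:94386179-94386428 (plus strand).
Hspa5: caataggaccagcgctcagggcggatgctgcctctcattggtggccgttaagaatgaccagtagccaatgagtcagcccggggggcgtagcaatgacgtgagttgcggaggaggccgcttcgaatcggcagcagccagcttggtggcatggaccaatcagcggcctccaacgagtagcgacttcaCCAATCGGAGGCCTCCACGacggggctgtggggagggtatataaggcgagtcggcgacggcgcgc
Hsp90b1: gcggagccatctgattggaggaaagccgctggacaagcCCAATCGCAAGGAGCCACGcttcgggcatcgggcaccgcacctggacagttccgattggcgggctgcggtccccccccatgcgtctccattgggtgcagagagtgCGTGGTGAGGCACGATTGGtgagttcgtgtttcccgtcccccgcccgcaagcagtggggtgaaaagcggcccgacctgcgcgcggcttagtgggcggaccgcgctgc
Creld2: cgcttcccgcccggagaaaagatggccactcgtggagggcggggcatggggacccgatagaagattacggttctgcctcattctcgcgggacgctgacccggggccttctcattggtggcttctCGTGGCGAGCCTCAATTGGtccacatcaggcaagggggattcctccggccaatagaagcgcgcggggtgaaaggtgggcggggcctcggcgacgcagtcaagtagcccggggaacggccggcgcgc
Herpud1: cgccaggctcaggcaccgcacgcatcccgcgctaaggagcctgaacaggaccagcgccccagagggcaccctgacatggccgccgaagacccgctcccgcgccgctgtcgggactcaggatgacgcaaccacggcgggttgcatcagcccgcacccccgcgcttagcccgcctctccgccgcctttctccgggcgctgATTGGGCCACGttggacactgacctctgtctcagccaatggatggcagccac

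Counted from the start, the ERSE of Hspa5 ran from base −65 to base −47. Hsp90b1 held a pair of them, at −212 to −194 as written and at −107 to −89 on the opposite strand. The ERSE of Creld2, at −126 to −108, also lay on the opposite strand, and the ERSE-II of Herpud1 ran from −52 to −42. No ERSE or ERSE-II was found in these windows of Xbp1, Dnajb9, Sdf2l1 and Pdia4, whose promoters held between 0 and 4 matches to CCAAT alone (found in 37.4% of all promoters). The shorter element TGACGTGG, known as a target of XBP1 and ATF6 (UPRE), was found in 0 of the 8 promoters and in 0.676% of all promoters. A match describes letters in a window and not binding.

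Library totals ran from 18449986 to 21827619 counts, and every one of the 10 genes passed the filter on low counts that left 13377 genes to be tested. Levels are counts scaled between libraries by TMM normalization (CPM), gene positions are those of build mm10, and log2 fold changes are IR insulin over IR vehicle, positive where the level was higher with insulin. A pair of vehicle libraries stood apart from the rest. In vehicle replicate 2 the deviation of genes from the other libraries declined with GC content, with a log2 slope of −1.13 for every 10 points of GC percentage (against slopes of −0.064 to 0.19 in the other 5 libraries), and vehicle replicate 3 differed in sets of genes that include most of those described here. Results are therefore also given without each of them. The hepatocyte markers summed to between 68765 and 175453 CPM, and 6 of 8 markers of the pancreas, an organ beside the liver that expresses ER chaperones strongly, had no count in any library. The 8 pancreas markers together summed to 14.9 to 18.5 CPM per library, all of it from Cela1 and Cela2a.

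Insulin made no detectable difference to any of the 10 genes (edgeR quasi-likelihood test, Benjamini-Hochberg adjustment over 13377 genes). Their adjusted p ran from 0.852 to 0.9995, and 5 of them had a log2 fold change above 0 and 5 below it, with a median of 0.028 against −0.017 for all genes. The criterion of the study (a log2 fold change of 0.35 or more in size and an unadjusted p below 0.05) was passed by 0 of the 10, against 2.86% of all genes. DESeq2 (2.38% of all genes) and limma voom (1.59%) also called 0 of the 10, and none had an unadjusted p under 0.05 by edgeR. The values of the groups overlapped for all 10, where 12.3% of all genes had groups that did not overlap. What varied was the level among the vehicle libraries. With 1 library per mouse, mouse and library preparation cannot be told apart. One of the vehicle libraries, replicate 3, held the lowest level of 8 of the 10 genes, down to 8.99-fold below the median of the other 5 livers for Creld2.

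**Figure D1:**
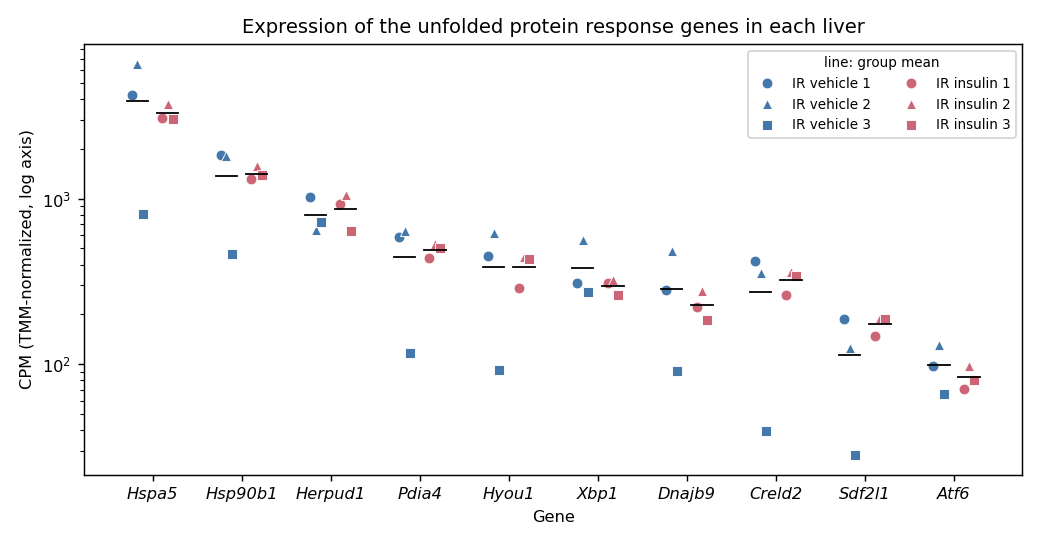
TMM-normalized CPM (log axis) of the 10 genes of the unfolded protein response in each liver, with blue symbols for the IR vehicle and red symbols for the IR insulin mice, shapes for replicates and black lines for group means (n = 3). The insulin mice lie within 1.65-fold of one another for every gene, while vehicle replicate 3 (blue squares) lies below all insulin mice for 8 of the 10.

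Per length of transcript, Hspa5 and Hsp90b1, chaperones that bind unfolded proteins directly, were the most abundant of the 10. Hspa5 encodes BiP, the Hsp70-type chaperone that holds the sensors inactive (chr2:34771970-34777547, plus strand). Vehicle replicates 1, 2 and 3 held 4238, 6546 and 807 CPM of it, and insulin replicates 1, 2 and 3 held 3053, 3754 and 3041 CPM. Values of the other genes are given in the same order. The insulin values lay between the lowest and the highest vehicle value, so the groups overlapped completely. The group means were 3864 ± 2888 CPM (SD, n = 3) with vehicle and 3283 ± 408 CPM (n = 3) with insulin, a log2 fold change of −0.24 ± 0.63 (SE, edgeR adjusted p = 0.929). The 95% interval ran from −1.69 to 1.22, so that changes of more than 1 on the log2 scale in either direction lay within it.

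Hsp90b1 encodes the Hsp90-type chaperone of the ER lumen (chr10:86690209-86705509, minus strand). It stood at 1827, 1803 and 463 CPM in the vehicle livers and at 1310, 1565 and 1380 CPM after insulin. Vehicle replicates 1 and 2 were above all insulin mice and replicate 3 was below them. The log2 fold change was 0.056 ± 0.48 (edgeR adjusted p = 0.977). Hyou1, a large Hsp70-related protein that exchanges the nucleotide of BiP (chr9:44379490-44392369, plus strand), was at 452, 619 and 91.9 CPM in the vehicle livers and at 290, 441 and 432 CPM after insulin. Its group means were almost equal, at 388 ± 270 CPM with vehicle and 388 ± 84.8 CPM after insulin (SD, n = 3 each). With vehicle replicate 3 so far below the other vehicle mice, this equality of means had a 95% interval of −1.36 to 1.36 on the log2 scale (edgeR adjusted p = 0.9995).

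Enzymes and helpers of oxidative folding come next. Pdia4, a protein disulfide isomerase (chr6:47796141-47813430, minus strand), was at 585, 635 and 118 CPM in the vehicle livers and at 436, 533 and 506 CPM after insulin. Creld2, an ER protein related to the disulfide isomerases (chr15:88819646-88826683, plus strand), was at 422, 356 and 39.6 CPM in the vehicle livers and at 260, 362 and 343 CPM after insulin. Both were thus low in a single vehicle mouse, and both overlapped between the groups. The log2 fold changes were 0.14 ± 0.54 for Pdia4 (edgeR adjusted p = 0.949) and 0.24 ± 0.69 for Creld2 (adjusted p = 0.933).

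The co-chaperones of BiP behaved alike in vehicle replicate 3 and differed in vehicle replicate 2. Dnajb9, a J-domain protein that also returns IRE1 to its inactive complex with BiP (chr12:44205559-44210326, minus strand), was at 280, 486 and 90.4 CPM in the vehicle livers and at 223, 276 and 185 CPM after insulin. Sdf2l1, an ER protein that acts with another J-domain co-chaperone (chr16:17130138-17132383, minus strand), was at 187, 124 and 28.2 CPM in the vehicle livers and at 149, 191 and 187 CPM after insulin. Vehicle replicate 2 thus held the highest level of Dnajb9 and a level of Sdf2l1 below all insulin mice. Sdf2l1 had the largest log2 fold change of the 10, 0.63 ± 0.57 (edgeR adjusted p = 0.852, 95% interval −0.68 to 1.95), and Dnajb9 had one of −0.33 ± 0.53 (adjusted p = 0.879).

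The transcription factors varied less. Xbp1 (chr11:5520659-5525893, plus strand) was at 308, 560 and 272 CPM in the vehicle livers and at 309, 321 and 262 CPM after insulin, with its highest value in vehicle replicate 2 and its lowest in insulin replicate 3. Counts per gene do not separate the spliced from the unspliced mRNA, so the activity of IRE1 was not measured here. Atf6 (chr1:170704674-170867771, minus strand) was at 97.6, 131 and 66.5 CPM in the vehicle livers and at 70.9, 98.1 and 80.4 CPM after insulin. It was lowest in vehicle replicate 3 but only 1.47-fold below the median of the other livers. The log2 fold changes were −0.35 ± 0.32 for Xbp1 (edgeR adjusted p = 0.852) and −0.24 ± 0.29 for Atf6 (adjusted p = 0.859). Cleavage of the ATF6 protein is likewise not visible in RNA counts.

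Herpud1 encodes a membrane protein of the ubiquitin ligase complex that degrades misfolded ER proteins (chr8:94386438-94395377, plus strand). At 1021, 646 and 723 CPM with vehicle and 933, 1046 and 633 CPM after insulin it was the one gene of the 10 whose vehicle values spread less than its insulin values (SD of log2 CPM of 0.34 against 0.38). Its lowest value was in insulin replicate 3 and its highest in insulin replicate 2. The log2 fold change was 0.13 ± 0.30 (edgeR adjusted p = 0.919). The gene is overlapped on the opposite strand by Gm15890, which held 4 to 12 counts per library against 10515 to 24170 for Herpud1. Hsp90b1 is overlapped by 1810014B01Rik (20 to 109 counts) and Gm15344 (6 to 97 counts), and whether counting used strand is not given in the sources used here.

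Compared per length of the longest transcript, as the mean CPM per kb over the 6 livers, Hspa5 stood highest at 973. Hsp90b1 at 432 and Herpud1 at 427 came next, followed by Creld2 at 218, Pdia4 at 195, Xbp1 at 159, Sdf2l1 at 130, Dnajb9 at 104 and Hyou1 at 78.7. Atf6 stood lowest at 12.5. Hspa5 ranked 38th by mean CPM among the genes tested, and Atf6 ranked 1456th. The order of neighbours is not firm, since the vehicle mice spanned 1.58-fold (Herpud1) to 10.7-fold (Creld2) for a single gene.

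Spread differed between the groups. The SD of log2 CPM among the vehicle mice had a median of 1.30 over the 10 genes, against 0.218 among the insulin mice. Over all genes tested these medians were 0.518 and 0.182. The vehicle spread was the larger for 9 of the 10 genes, and for 85.2% of all genes. Among the insulin mice, replicate 2 held the highest level of all 10 genes, where 30.5% of all genes were highest in that library. The differences were small, with the insulin mice spanning 1.19-fold (Hsp90b1) to 1.65-fold (Herpud1). Summed over the 10 genes, the insulin mice were at 7035, 8588 and 7049 CPM and the vehicle mice at 9420, 11905 and 2699 CPM.

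Vehicle replicate 3 was described further by the deviation of each gene, the difference on the log2 CPM scale from the median of the other 5 libraries. This library was singled out with the values of the 10 genes known, so the shares below describe it and test nothing. The median deviation was −1.97 over the 10 genes and −0.0029 over all genes. The deviation was under −1 for 7 of the 10, against 7.12% of all genes. Vehicle replicate 3 was the lowest of the 6 libraries for 8 of the 10, against 23.8% of all genes. Fold differences below the median of the other livers were 8.99 for Creld2, 6.63 for Sdf2l1, 4.81 for Hyou1, 4.65 for Hspa5, 4.53 for Pdia4, 3.38 for Hsp90b1 and 3.05 for Dnajb9. They were smaller for Atf6 (1.47), Herpud1 (1.29) and Xbp1 (1.14). Among the 10, the chaperones, folding enzymes and co-chaperones thus stood apart together in this liver, and the transcription factors and Herpud1 stood close to the other livers. The further lists described below did not divide in this way throughout. Of the other chaperones and folding enzymes, Canx deviated by −0.27 and Calr by −0.66, but Manf by −2.06. Of the genes of ER-associated degradation, Derl3 deviated by −3.21 and Syvn1 by −2.24.

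Ordered by their deviation in vehicle replicate 3 among the 13377 genes, from the lowest, Creld2 was 64th, Sdf2l1 111th, Hyou1 189th, Hspa5 202nd, Pdia4 219th, Hsp90b1 343rd and Dnajb9 397th. Atf6 was 2229th, Herpud1 3265th and Xbp1 4836th. Among the 5171 genes with a mean of at least 20 CPM, the lowest in that liver were Mup15, Cfd, Saa3, Saa2 and Gbp10, with deviations from −8.44 to −6.31. These 5 were named after their values were seen, and Mup15, Saa2 and Saa3 belong to families of close paralogs among which reads can be split. Saa2 and Saa3 encode acute phase proteins, which the liver secretes in inflammation, and Gbp10 an interferon-induced GTPase. In vehicle replicate 2, Saa2 and Saa3 were also low, with deviations of −5.04 and −2.92. Mup15 deviated by 0.90 and Hspa5 by 1.10 in that library. The neutrophil markers summed to 4.63 CPM in vehicle replicate 3, where the other libraries held 31.0 to 77.6 CPM, and the macrophage markers to 336 CPM there against a range of 238 to 520 CPM. Single macrophage markers went both ways in that library, with Marco at a deviation of −2.84 and Clec4f and Cd5l at 0.66 each. The part of these genes and markers in the low chaperone levels was not tested. In whole liver, fewer cells of a type and less RNA per cell cannot be told apart. The hepatocyte markers summed to 116643 CPM in vehicle replicate 3 and to 68765 to 175453 CPM in the other libraries. Genes within 1 percentage point of the GC content of each of the 10 had median deviations of −0.13 to 0.10 in vehicle replicate 3.

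**Figure D2:**
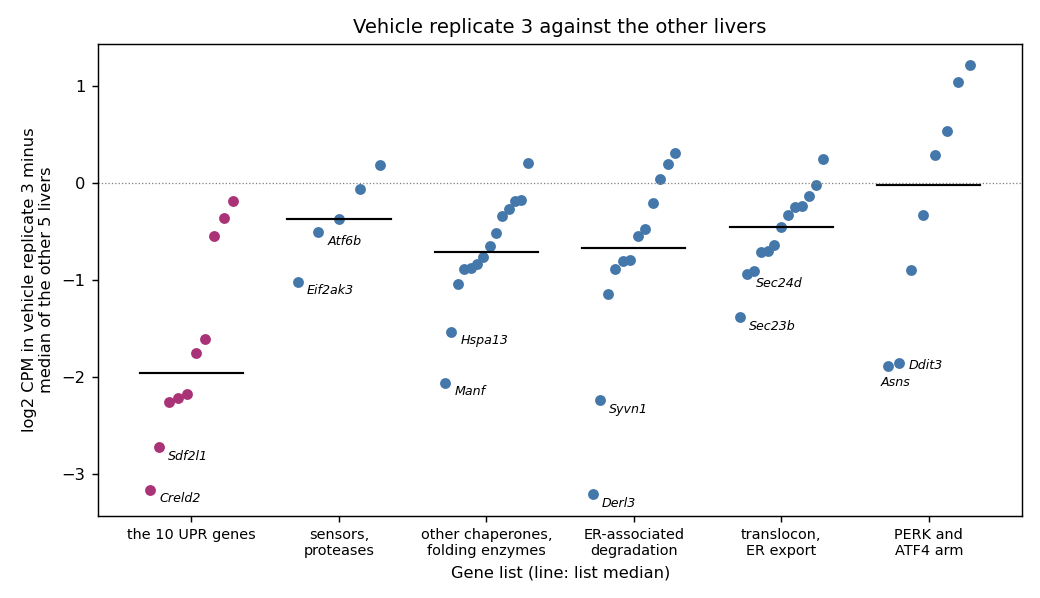
Deviation of vehicle replicate 3 (difference in log2 CPM from the median of the other 5 livers) for the 10 genes and for 5 further lists of the unfolded protein response, 1 point per gene, with a black line at the median of each list and the 2 lowest genes named. The 10 genes have a median of −1.97, below the other lists, whose medians run from −0.71 to −0.023.

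Leaving out a single vehicle mouse moved the comparison with insulin in opposite directions. Without vehicle replicate 3, the log2 fold changes of 8 of the 10 genes were below 0, with a median of −0.41, and Hspa5 (−0.72) and Dnajb9 (−0.75) passed the study's criterion as lower with insulin, with an unadjusted p just below 0.05. In that fit 6.51% of all genes passed it and 4.86% passed it as lower, and both genes had an adjusted p of 0.527 (edgeR). Both were lowest in vehicle replicate 3, so leaving it out raised their vehicle mean. Without vehicle replicate 2, all 10 log2 fold changes were above 0, from 0.0032 for Herpud1 to 0.71 for Sdf2l1, and 0 of the 10 passed, against 3.69% of all genes. The sign was thus opposite in these fits for 8 genes, all except Herpud1 and Sdf2l1. Among them, Hsp90b1, Pdia4, Creld2 and Hyou1 stood at −0.36, −0.31, −0.27 and −0.47 without vehicle replicate 3, and at 0.31, 0.49, 0.48 and 0.51 without vehicle replicate 2. With both left out, a setting chosen after seeing the data, vehicle replicate 1 alone was set against the 3 insulin mice and all 10 were below 0, from −0.38 to −0.042.

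**Figure D3:**
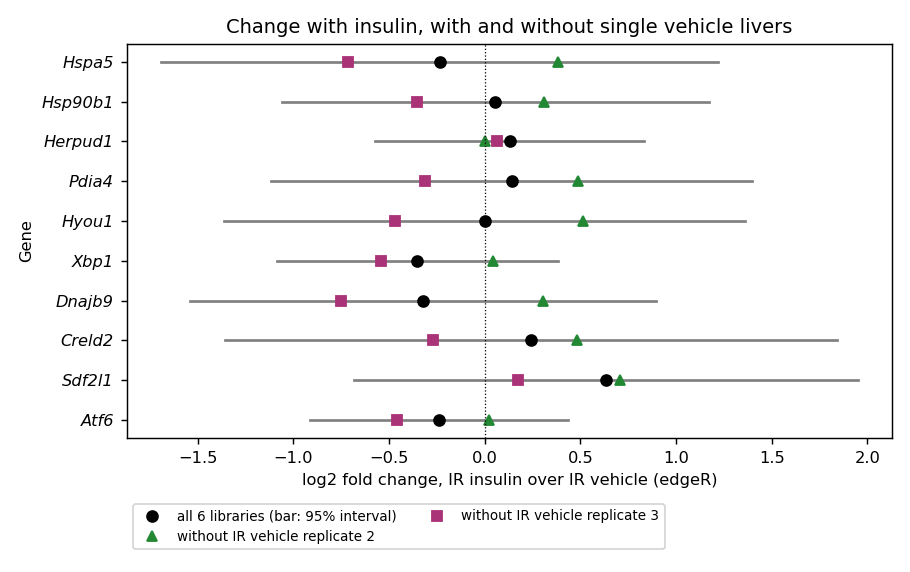
Log2 fold change of each of the 10 genes, IR insulin over IR vehicle, in edgeR fits on all 6 libraries (black circles, with 95% intervals as grey bars), without vehicle replicate 2 (green triangles) and without vehicle replicate 3 (purple squares). Every interval includes 0, and for all 10 genes except Herpud1 the estimate without vehicle replicate 2 lies above the estimate without vehicle replicate 3.

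Vehicle replicate 2 held the highest level of 6 of the 10 genes, where 35.8% of all genes were highest there, and its values were read beside GC content. Dnajb9, with the lowest GC content of the 10 (40.6%), deviated by 1.12 in that library, and genes of like GC content (within 1 percentage point) had a median of 0.81. Hspa5, at 45.6% GC, deviated by 1.10 against a median of 0.45. Xbp1, at 53.0% GC, deviated by 0.86 against a median of −0.45, and Hyou1, at 52.3% GC, by 0.52 against −0.38. Both therefore stood above genes of their GC content. Sdf2l1, at 56.7% GC the highest of the 10, deviated by −0.59 against −0.95, and Herpud1, at 53.0% GC, by −0.53 against −0.45. Hsp90b1, at 42.1% GC, lay below its like, at 0.39 against 0.70, and Herpud1 was the other gene of the 10 that did. Erythroid markers summed to 1588 CPM and B and plasma cell markers to 112 CPM in vehicle replicate 2, while elsewhere they ranged over 312 to 627 CPM and over 5.07 to 22.4 CPM. In the comparison of insulin with vehicle, 4 of 5 erythroid markers and 1 of 5 B and plasma cell markers tested passed the study's criterion, all lower with insulin (adjusted p = 0.852 each, edgeR), against 2.86% of all genes. Without vehicle replicate 2, 0 of 5 and 0 of 7 passed it. The part of these markers or of GC content in these levels was not tested.

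**Figure D4:**
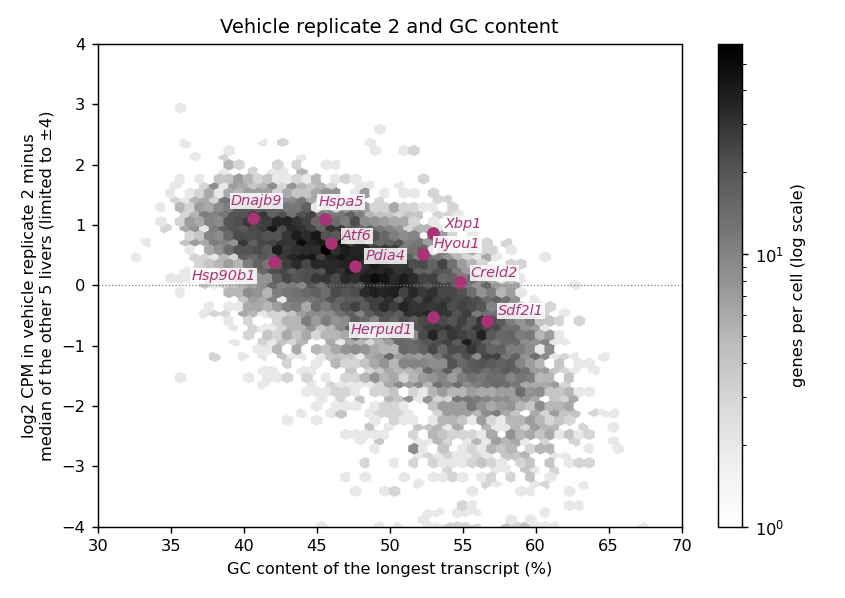
Deviation of vehicle replicate 2 (difference in log2 CPM from the median of the other 5 livers, limited to ±4) against the GC content of the longest transcript (%) for the genes tested, with grey shading for the number of genes per cell (log scale) and purple points for the 10 genes of the unfolded protein response. Deviations decline with GC content over all genes, and Xbp1 (0.86) and Hyou1 (0.52) lie above the bulk of genes of their GC content.

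A correction for GC content, entered as an offset, raised the median log2 fold change of all genes from −0.017 to 0.19. As fitted, 9 of the 10 were above 0, where 5 were without the correction. Relative to the median of all genes, 5 of the 10 were higher with the correction and 6 without it. On that relative scale and with the correction, Hsp90b1 stood at 0.36, Pdia4 at 0.33, Sdf2l1 at 0.27, Dnajb9 at 0.24 and Hspa5 at 0.18. Xbp1 stood at −0.53, Hyou1 at −0.11, Herpud1 at −0.043, Atf6 at −0.0048 and Creld2 at −6.7e-05. Still 0 of the 10 passed the study's criterion, against 5.34% of all genes.

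Lists of 52 further genes of the pathway were read in the edgeR fit on all 6 libraries, without the GC correction. Of these, 0 passed the study's criterion or an unadjusted p of 0.05 (all adjusted p at least 0.852), against 2.86% of all genes. The groups did not overlap for 4 of the 52 (Mbtps2, Derl2, Spcs1 and Atf4), or 7.69%, against 12.3% of all genes. The list of sensors and proteases had a median log2 fold change of 0.19, with 4 of 5 above 0. The IRE1 gene Ern1 was at 24.1, 26.0 and 18.7 CPM in the vehicle livers and at 22.9, 24.2 and 31.2 CPM after insulin. The PERK gene Eif2ak3 was at 27.3, 19.5 and 11.2 CPM in the vehicle livers and at 20.6, 24.2 and 22.9 CPM after insulin. Both sensors overlapped between the groups and were lowest in vehicle replicate 3. Mbtps2, a protease that cuts ATF6 in the Golgi apparatus, was at 10.05, 22.0 and 10.6 CPM in the vehicle livers and at 8.87, 9.35 and 8.16 CPM after insulin, without overlap (log2 fold change −0.69 ± 0.34). Atf6b, a relative of Atf6, stood at 7.12 CPM in vehicle replicate 2 while the other libraries held 20.985 to 34.6 CPM (log2 fold change 0.64 ± 0.46).

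Among 14 other ER chaperones and folding enzymes the median log2 fold change was −0.084, with 6 above 0 and 8 below. Manf, a secreted ER protein that associates with BiP, was at 388, 182 and 81.3 CPM in the vehicle livers and at 340, 393 and 336 CPM after insulin (0.71 ± 0.50 on the log2 scale). Vehicle replicates 2 and 3 were thus below all insulin mice while replicate 1 was within their range. Manf is overlapped by the protein-coding genes Rbm15b on the same strand and Dcaf1 on the opposite strand. Hspa13, another Hsp70-type protein, was at 96.3, 251 and 31.7 CPM in the vehicle livers and at 59.0, 92.0 and 73.1 CPM after insulin (−0.76 ± 0.63). As for Hspa5, vehicle mice lay on both sides of the insulin mice. Ero1l, the oxidase that recharges the disulfide isomerases, was at 18.9, 47.7 and 13.1 CPM in the vehicle livers and at 13.0, 22.8 and 15.8 CPM after insulin (−0.62 ± 0.48). Vehicle replicate 3 was the lowest library for 9 of the 14, with a median deviation of −0.71.

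The 12 genes of ER-associated degradation had a median log2 fold change of −0.072, with 5 above 0 and 7 below. Derl3, a membrane protein of the degradation channel, was at 52.1, 13.3 and 5.39 CPM in the vehicle livers and at 45.4, 50.7 and 67.2 CPM after insulin, which gave the largest fold change in these lists, 1.21 ± 0.70 on the log2 scale. Vehicle replicate 1 lay among the insulin mice, and the other vehicle mice lay below them. Its relative Derl2 was at 103, 131 and 98.3 CPM in the vehicle livers and at 82.1, 96.0 and 91.9 CPM after insulin, without overlap (−0.30 ± 0.22). The gene Derl2 is overlapped on the opposite strand by the protein-coding gene Mis12. In vehicle replicate 3 Derl3 was 9.41-fold below the median of the other livers, and Syvn1, the ubiquitin ligase of the complex that holds the Herpud1 protein, was 4.74-fold below it. The list's median deviation there was −0.67, and 7 of the 12 were lowest in that library.

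The translocon and export list (13 genes) had a median log2 fold change of −0.25, with 5 above 0 and 8 below. The signal peptidase subunits Spcs1 and Spcs3 and the translocon protein Sec62 had the smallest p. Spcs1 was at 72.6, 128 and 83.4 CPM in the vehicle livers and at 70.6, 69.7 and 70.2 CPM after insulin, without overlap (−0.43 ± 0.26). Spcs3 was at 93.3, 179 and 62.6 CPM in the vehicle livers and at 65.1, 85.7 and 71.9 CPM after insulin (−0.59 ± 0.38). Sec62 was at 145, 243 and 114 CPM in the vehicle livers and at 119, 135 and 121 CPM after insulin (−0.42 ± 0.31). All 3 were highest in vehicle replicate 2, as were 8 of the 13 genes and 35.8% of all genes. The list had a lower median GC content (44.6%) than all genes tested (49.3%). Vehicle replicate 3 was the lowest library for 8 of the 13, against 23.8% of all genes, with a median deviation of −0.45.

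The 8 genes of the PERK and ATF4 arm had a median log2 fold change of 0.21, with 6 above 0 and 2 below, and a median deviation in vehicle replicate 3 of −0.023. Atf4, the transcription factor that PERK signalling favours, was at 121, 27.0 and 96.6 CPM in the vehicle livers and at 137, 122 and 135 CPM after insulin, without overlap (0.69 ± 0.48 on the log2 scale). Ddit3, the factor CHOP, was at 22.5, 4.11 and 6.10 CPM in the vehicle livers and at 32.3, 15.0 and 27.7 CPM after insulin (1.197 ± 0.62). A pair of overlapping genes on the same strand carry the symbol Ddit3, and these values are those of a single entry. Reads may be split between the pair or dropped. The protein-coding gene Mars also overlaps Ddit3, on the opposite strand. Vehicle replicate 2 was thus the lowest for Atf4 and Ddit3, and the list's median deviation in that library was −1.32 at a median GC content of 55.6%. Atf4, at 55.5% GC, deviated by −2.17 there. Ddit3, at 45.6% GC, deviated by −2.42, where genes of the GC content of Hspa5 (also 45.6%) had a median of 0.45. The part of GC content in these levels was not tested. Asns, an amino acid enzyme raised by ATF4, was at 3.33, 8.90 and 1.81 CPM in the vehicle livers and at 6.98, 5.76 and 9.59 CPM after insulin (0.68 ± 0.55). In vehicle replicate 3, Trib3 and Sesn2, further targets of ATF4, deviated by 1.21 and 1.04 and were at their highest of the 6 livers, while Ddit3 and Asns deviated by −1.86 and −1.89. The difference between this list and the 10 genes was not tested.

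The counts for these lists also rested on single vehicle mice. Without vehicle replicate 3, 8 of the 52 genes passed the study's criterion, all lower with insulin (Mbtps2, Ero1lb, Hspa13, Sel1l, Edem1, Ssr3, Spcs3 and Sec23b, adjusted p = 0.527 each), against 4.86% of all genes as lower. Without vehicle replicate 1, 5 passed it, with Manf, Syvn1, Derl3 and Ddit3 higher and Mbtps2 lower, against 9.81% of all genes. Without vehicle replicate 2, only Asns passed (log2 fold change 1.54), against 3.69% of all genes. These genes were named because they passed in those fits.

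The element shown above was followed into the rest of the table. In all, 49 genes of the RefSeq promoter set held an ERSE or ERSE-II, 46 matched a gene of the table and 27 were tested. Their median log2 fold change was 0.056, and 0 of 27 passed the study's criterion, against 2.86% of all genes. Their median deviation in vehicle replicate 3 was −0.65. The 5 with the lowest deviations there were Derl3 (−3.21), Creld2 (−3.16), Syvn1 (−2.24), Hspa5 (−2.22) and Hsp90b1 (−1.76), all of them members of the lists above. The 15 that were in none of the lists had a median deviation of −0.31. Sdf2l1, Hyou1, Pdia4 and Dnajb9 deviated by −1.61 to −2.73 with no such element found, or with no promoter to search, and Herpud1 with its ERSE-II deviated by −0.37. This set was looked at after the values of vehicle replicate 3 were known and is given as a description.

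Among the genes whose pattern was most like the mean profile of the 10 (Pearson's r of log2 CPM over the 6 libraries, among 5161 other genes with a mean of at least 20 CPM) were Apcs (0.999), Gbp10 (0.998), Hsd17b12 (0.997), Arf2 (0.992), Gbp2 (0.992), Ghitm (0.992), Arfgap3 (0.991), Tbrg1 (0.990) and Mis12 (0.990). Of these, 0 were in a list of the pathway, though Mis12 overlaps the list gene Derl2 on the opposite strand. Apcs, which encodes the pentraxin serum amyloid P, was at 616, 698 and 165 CPM in the vehicle livers and at 448, 560 and 497 CPM after insulin. Its levels ran in nearly the same order as those of Hspa5. Gbp10 was at 82.7, 97.6 and 0.858 CPM in the vehicle livers and at 26.2, 75.8 and 35.9 CPM after insulin. With the low vehicle replicate 3 left out, r for the genes named ran from 0.896 to 0.988 over the other 5 libraries. The libraries are shared by both sides of each r, which is given as a description.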

How the data were processed

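Per the study's methods, the authors used a NEBNext Ultra kit and an Illumina HiSeq instrument, and mapped reads to mm10 with Bowtie2 (version 2.2.3 in the submitters' processing notes). The deposited values are whole-number read counts per gene, neither normalized nor pooled by the authors. The counting program, annotation and strand setting are not given in the sources used here. An aligner without spliced mode can lose reads across exon junctions, which affects levels compared between genes.

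Groups and replicate numbers came from the sample labels. Genes were matched by symbol, and 54495 of 54532 identifiers were found in GENCODE M21 (build 38), the source of coordinates, length and GC content (13367 of 13377 genes tested). Promoters came from RefSeq, and no protein sequence was used here. Counts were tested with edgeR 4.0.16 (R 4.3.3, quasi-likelihood F test, TMM, filterByExpr count cut-offs of 10 per library and 15 in total), no covariate, and Benjamini-Hochberg adjustment over 13377 genes. Log2 CPM used a prior count of 2. The biological coefficient of variation was 0.357, and the spread between the 3 libraries of a group, more than depth, limited precision. Scripts were tested on simulated data. The authors had used DESeq2, and the study's criterion was applied to the edgeR fit. With 3 libraries on each side, exact permutation cannot reach a two-sided p below 0.1, so no such test was run.

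Alternatives were RLE and upper-quartile size factors, no filter, DESeq2 1.42.0, limma 3.58.1 voom with sample quality weights, a loess GC offset (span 0.5), a replicate block, and leaving out each library. The 10 genes, the lists and the rules were chosen with earlier results of these data known. Named were the 10 genes, the 3 genes of each further list with the smallest p, Ern1, Eif2ak3, Atf4 and Ddit3, and the 10 genes most alike in pattern. A few results that this rule would name are not reported here. Any other gene was named after its values were seen.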

Additional observations from a re-analysis of the deposited data

How the results depend on the processing

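Over 16 alternatives, 119 of 160 log2 fold changes of the 10 genes kept their direction and stayed short of the study's criterion, 39 changed sign and 2 passed it (Hspa5 and Dnajb9 without vehicle replicate 3). Signs were counted as fitted, not relative to all genes. In the fits with the GC offset the median of all genes was itself 0.14 to 0.23. All 10 changed sign at least once. Their adjusted p ran from 0.524 to 0.99983, and no alternative gave any gene of the table an adjusted p under 0.05. The cause of the changes was not tested. The 10 genes held at least 591 counts in each library.

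With single replicates left out, the number of the 10 past the criterion was 0 to 2 and that of the 52 list genes 0 to 8. That of all genes ran from 99 of 13621 (without insulin replicate 1) to 1349 of 13750 (without vehicle replicate 1). The median log2 fold change of the 10 ran from −0.41 to 0.35. For single genes the ranges were −0.72 to 0.38 for Hspa5, −0.36 to 0.33 for Hsp90b1, −0.54 to 0.042 for Xbp1, −0.46 to 0.023 for Atf6, −0.023 to 0.35 for Herpud1, −0.75 to 0.30 for Dnajb9, 0.17 to 1.21 for Sdf2l1, −0.31 to 0.49 for Pdia4, −0.27 to 0.71 for Creld2 and −0.47 to 0.51 for Hyou1.

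The number of all genes past the criterion was 383 of 13377 (2.86%). It was 742 of 23040 with no filter on low counts and 548 of 23025 (2.38%) with DESeq2. It was 213 of 13377 (1.59%) with voom and 714 of 13377 (5.34%) with the GC offset. With that offset and no vehicle replicate 2 it was 791 of 13760. Of the 52 list genes, 2 passed with no filter. In the DESeq2, voom and GC offset fits, and with the GC offset and no vehicle replicate 2, 1 passed in each. Hyou1, at −0.00065, changed sign most often, to 0.061 with upper-quartile size factors, 0.039 with no filter and 0.00047 with DESeq2. Voom gave 0.15 for Hspa5, −0.0040 for Herpud1, 0.065 for Dnajb9 and 0.19 for Hyou1. The GC offset gave 0.37 for Hspa5, 0.18 for Atf6, 0.43 for Dnajb9 and 0.077 for Hyou1, with a median of all genes of 0.19.

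Whether the replicate numbers pair the samples is not given in the labels. Deviations of same-numbered libraries had correlations of −0.039, 0.069 and 0.017, and those of differently numbered libraries ran from −0.11 to 0.089. A weak pairing could not be seen against that range, so these values do not settle it. With the replicate number as a block, 321 of 13377 genes and 2 of the 52 passed, and Hspa5 (0.17) and Hyou1 (0.30) changed sign. With the replicate block and the GC offset together, 427 of 13377 genes and 2 of the 52 passed. Hspa5 (0.72), Atf6 (0.18), Dnajb9 (0.55) and Hyou1 (0.38) changed sign, with a median of all genes of 0.23.

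Chosen after seeing the data were the GC offset without vehicle replicate 2 and the fit without vehicle replicates 2 and 3. The former gave 0.63 for Hspa5, 0.17 for Xbp1, 0.20 for Atf6, 0.55 for Dnajb9 and 0.68 for Hyou1. The median of all genes in it was 0.14, and 9 of the 10 lay above that median, Xbp1 by 0.024 and Atf6 by 0.054. The latter assumes that the lone vehicle mouse varies like the insulin mice. It gave −0.36 for Hsp90b1, −0.22 for Herpud1, −0.086 for Sdf2l1, −0.25 for Pdia4 and −0.38 for Creld2.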
